A study of Homo sapiens with 36 samples.

Results

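The FOX, SOX, TBX and GATA transcription factors were examined in testicular germ cell tumor cells in which the histone demethylases KDM6A and KDM6B were inhibited or knocked down. Members were chosen by a rule on gene symbols that uses no measured values, but with earlier results of these data known. They were protein-coding rows named FOX, SOX, TBX or GATA with a letter and number, TBXT and EOMES included, and SOX2, FOXH1 and FOXM1 left out. Of 82 RefSeq genes under this rule, 57 were listed in at least 1 of the 3 gene tables, out of 18078 genes in all, and the other 25 were not analysed here. The 57 were 26 of 43 FOX genes, 14 of 18 SOX genes, 13 of 15 TBX genes and 4 of 6 GATA genes, and 46 of them were in all 3 tables. The series held 3 RNA-seq experiments with 12 libraries each, 4 arms of 3 libraries. NT2/D1-A4 and 2102EP-C1, cisplatin-resistant clones of established human embryonal carcinoma lines, received vehicle, 0.5 µM cisplatin for 6 h, the KDM6A/KDM6B inhibitor GSK-J4 at 1 µM for 3 days, or GSK-J4 followed by cisplatin. In the knockdown experiment, 2102EP-C1 cells carried the empty vector pLKO.1 or the hairpins sh6A+6B against KDM6A and KDM6B, with or without the same cisplatin dose. RNA was taken the day after cisplatin. Each line was a single resistant clone and each demethylase was targeted by a single lentiviral hairpin, which limits the groups as models.

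These families are DNA-binding regulators that set cell fate in the embryo. FOX proteins bind through a forkhead domain, SOX proteins through an HMG box that bends DNA, TBX proteins through the T-box, and GATA proteins through zinc fingers. Many of their genes are classical targets of the polycomb complexes, which place the repressive mark H3K27me3, and KDM6A and KDM6B remove this mark. Embryonal carcinoma resembles the pluripotent cells of the early embryo, in which lineage factors of these families are mostly held at low levels.

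The sequence just upstream of the transcription start is shown for 5 members on which the results below turn: GATA2, GATA3 and SOX3, which rose with the inhibitor in both lines, SOX21, the largest rise with the hairpins, and FOXD3, which moved in opposite directions. Each run is 160 bases, written 5′ to 3′ on the strand of the gene from RefSeq on GRCh38.p14, and ends at the base before the outermost annotated start. Capitals mark CpG dinucleotides, the sites of DNA methylation that cluster in the promoters of many developmental genes.
GATA2 promoter (chr3:128493202-128493361, minus strand): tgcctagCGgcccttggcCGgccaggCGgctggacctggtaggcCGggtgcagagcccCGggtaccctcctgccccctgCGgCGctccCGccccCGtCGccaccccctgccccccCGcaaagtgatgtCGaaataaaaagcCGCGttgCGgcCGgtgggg
GATA3 promoter (chr10:8045173-8045332, plus strand): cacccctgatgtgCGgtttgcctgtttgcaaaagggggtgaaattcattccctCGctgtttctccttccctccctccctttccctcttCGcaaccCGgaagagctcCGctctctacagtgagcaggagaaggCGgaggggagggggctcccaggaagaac
SOX3 promoter (chrX:140505070-140505229, minus strand): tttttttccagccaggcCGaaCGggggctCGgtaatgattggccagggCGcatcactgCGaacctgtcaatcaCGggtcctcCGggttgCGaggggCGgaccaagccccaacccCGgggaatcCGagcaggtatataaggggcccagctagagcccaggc
SOX21 promoter (chr13:94712546-94712705, minus strand): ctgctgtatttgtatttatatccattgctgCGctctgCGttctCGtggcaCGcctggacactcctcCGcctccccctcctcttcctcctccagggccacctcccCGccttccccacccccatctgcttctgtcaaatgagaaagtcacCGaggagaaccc
FOXD3 promoter (chr1:63322407-63322566, plus strand): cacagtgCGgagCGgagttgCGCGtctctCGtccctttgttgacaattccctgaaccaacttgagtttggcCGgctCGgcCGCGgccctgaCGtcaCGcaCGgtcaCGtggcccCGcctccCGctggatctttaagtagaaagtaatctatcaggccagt
The 160 bases held 16 CpG at GATA2, 15 at FOXD3, 11 at SOX3, 7 at SOX21 and 6 at GATA3. GATA3 had 6 annotated starts and GATA2 had 2, so transcripts of these genes can begin elsewhere. The FOXD3 run overlapped an exon of the antisense gene FOXD3-AS1.

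The members' promoters were slightly richer in CpG than those of all genes, a description with no test. In 300-base windows from 250 bases before to 50 after each annotated start, available for 42 of the 57 members as 63 windows, the median ratio of observed to expected CpG was 0.788, and 69.8% of windows were above 0.6. The 22199 windows of 15843 protein-coding genes had a median of 0.737 and 62.1% above 0.6. Members called below for the inhibitor or the hairpins alone had a median of 0.744 over 29 windows, with 72.41% above 0.6. The other members had 0.850 over 34 windows, with 67.65% above 0.6. The letters AGATAA, a core of GATA sites, stood on either strand in 4.76% of member windows and 7.91% of all windows. For FOX letters (TGTTTAC) the shares were 4.76% and 2.85%, for SOX letters (ACAAAG) 6.35% and 13.6%, and for T-box letters (AGGTGT) 6.35% and 10.7%. None of the 4 strings contains another on either strand, and a match is a description of the sequence, not evidence of binding. Of the 5 promoters printed above, the FOXD3 run held the SOX letters.

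Sequencing depth ran from 26.8 to 49.5 M reads per library in NT2/D1-A4 (M, 1e6), 30.3 to 53.6 M in 2102EP-C1 and 79.4 to 100.9 M in the knockdown experiment. The hairpin targets went the way of their labels: KDM6A stood at 7.15 to 7.17 log2 CPM (counts per 1e6 reads) with pLKO.1 and at 6.09 to 6.2 with sh6A+6B, and KDM6B at 4.61 to 4.66 and 3.51 to 3.75. With GSK-J4, which acts on the proteins, KDM6B RNA rose by 0.88 in NT2/D1-A4 and 0.81 in 2102EP-C1 on the log2 scale. Of 12 embryonal carcinoma markers, 11 were listed, and their summed level was 10998.1 to 11263.3 CPM in NT2/D1-A4 controls and 9496.5 to 9753.6 with GSK-J4. The sums were 13056.9 to 13488.2 and 11582.5 to 11900.1 in 2102EP-C1, and 12306.3 to 12351.5 with pLKO.1 and 11543.9 to 11702.7 with sh6A+6B. Of the 11, 0 rose and 2 fell in NT2/D1-A4 (DNMT3B at -0.79 and TRIM71 at -0.43), 0 rose and 1 fell in 2102EP-C1 (DNMT3B at -0.43), and 1 rose and 0 fell with the hairpins (ZFP42 at 0.49), with medians of -0.20, -0.16 and -0.06. POU5F1, the pluripotency factor OCT4, differed by 0.16, 0.07 and -0.08, under the fold limit in each. Of 7 fibroblast markers, 4 were listed, COL3A1, DCN and LUM not among them, with sums of 125.8 to 129.7 CPM in NT2/D1-A4 controls and 96.1 to 105.1 with GSK-J4, 182.2 to 187.3 and 155.7 to 170.9 in 2102EP-C1, and 181.5 to 188.6 with pLKO.1 and 218.5 to 229.9 with sh6A+6B. Blood and Sertoli or Leydig markers summed to at most 3.6 CPM in any library. In bulk RNA, fewer cells expressing a factor and less RNA of it per cell cannot be told apart.

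The 4 families differed widely in level. Per kilobase of exon, SOX4, a SOXC factor of progenitor cells, was the highest member in the controls of all 3 experiments, at 5.76 log2 CPM per kb in NT2/D1-A4, 6.38 in 2102EP-C1 and 6.19 in the knockdown experiment. FOXN3, a forkhead repressor, followed at 4.17, 4.50 and 4.47. FOXJ3 and SOX15, a SOXG factor of pluripotent cells, held ranks 3 and 4 in either order, at 4.03 and 3.78 in NT2/D1-A4 and at 4.11 and 4.36 in 2102EP-C1. GATA factors sat low in all experiments, with a highest per-kilobase level of 0.11 in NT2/D1-A4, -0.00 in 2102EP-C1 and -0.31 in the knockdown experiment. The median TBX member was at -0.58, -1.69 and -1.64 log2 CPM per kb. On the scale of log2 CPM without length, 10 of the 50 members listed in NT2/D1-A4, 10 of 52 in 2102EP-C1 and 8 of 53 in the knockdown experiment had a mean under 0 over the 12 libraries, and are named below as low.

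Demethylase inhibition and knockdown were followed by calls in a larger share of these factors than of all genes in each experiment. A member was called changed past a fold of 1.3 and a Benjamini-Hochberg adjusted p of 0.05 in limma-trend, fitted on all genes of a table. In NT2/D1-A4, GSK-J4 alone raised 15 and lowered 4 of the 50 members, 38% against 20.3% of all genes (13.8% up, 6.48% down). In 2102EP-C1 it raised 7 and lowered 3 of 52, 19.2% against 10.9% (7.79% up, 3.12% down). The hairpins raised 12 and lowered 5 of 53, 32.1% against 12.1% (6.34% up, 5.74% down). The median log2 difference of the members was 0.11, 0.04 and 0.06 in the same order, against 0.01, -0.00 and -0.00 for all genes, and the median size regardless of direction was 0.32, 0.22 and 0.23 against 0.21, 0.15 and 0.12. Among members with a mean of at least 0 the counts were 17 of 40, 10 of 42 and 13 of 45, beside 19.9%, 10.4% and 9.91% of genes at those levels. The summed embryonal carcinoma markers moved with these contrasts, as given above, and their part in the counts was not tested. Labels do not say that libraries of a group came from separate cultures, so p-values measure the spread between libraries, which may be technical.

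**Figure D1:**
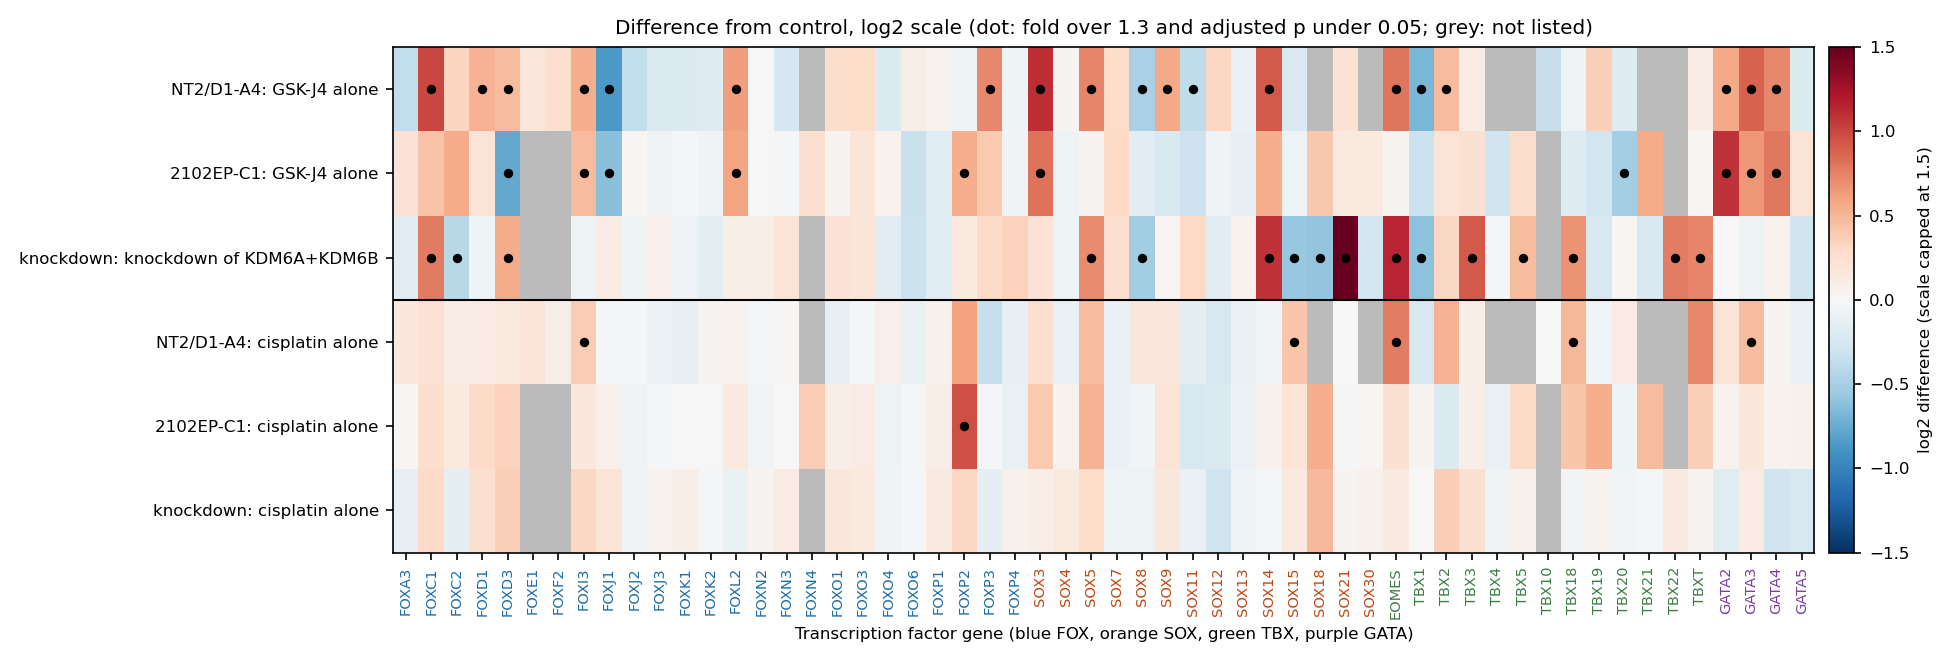
Log2 difference from control (color, capped at 1.5) for the factors (columns) with GSK-J4 or sh6A+6B alone and with cisplatin alone in each experiment (rows), with dots on called genes and grey where a table did not list the gene. The upper 3 rows carry 19, 10 and 16 dots, and the lower 3 carry 5, 1 and 0. A member called with the hairpins is counted among the 17 in the text but not drawn.

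Most of the calls were of members at low to moderate level. Under a mean of 4 log2 CPM, 17 of 32 members were called with GSK-J4 in NT2/D1-A4, 9 of 38 in 2102EP-C1 and 16 of 39 with the hairpins. At 4 or above the counts were 2 of 18, 1 of 14 and 1 of 14, namely FOXI3 in both lines, SOX11 in NT2/D1-A4 and SOX15 with the hairpins. The median size of the log2 difference, direction aside, was 0.47 under this level and 0.22 above it in NT2/D1-A4, 0.30 and 0.06 in 2102EP-C1, and 0.30 and 0.12 in the knockdown experiment. All genes split the same way: 27.5% of those under 4 and 12% of those at 4 or above were called in NT2/D1-A4, 15.9% and 4.84% in 2102EP-C1, and 19.3% and 4.18% with the hairpins. Values at low levels also vary more between libraries, and the level of 4 was chosen after the values were seen.

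**Figure D2:**
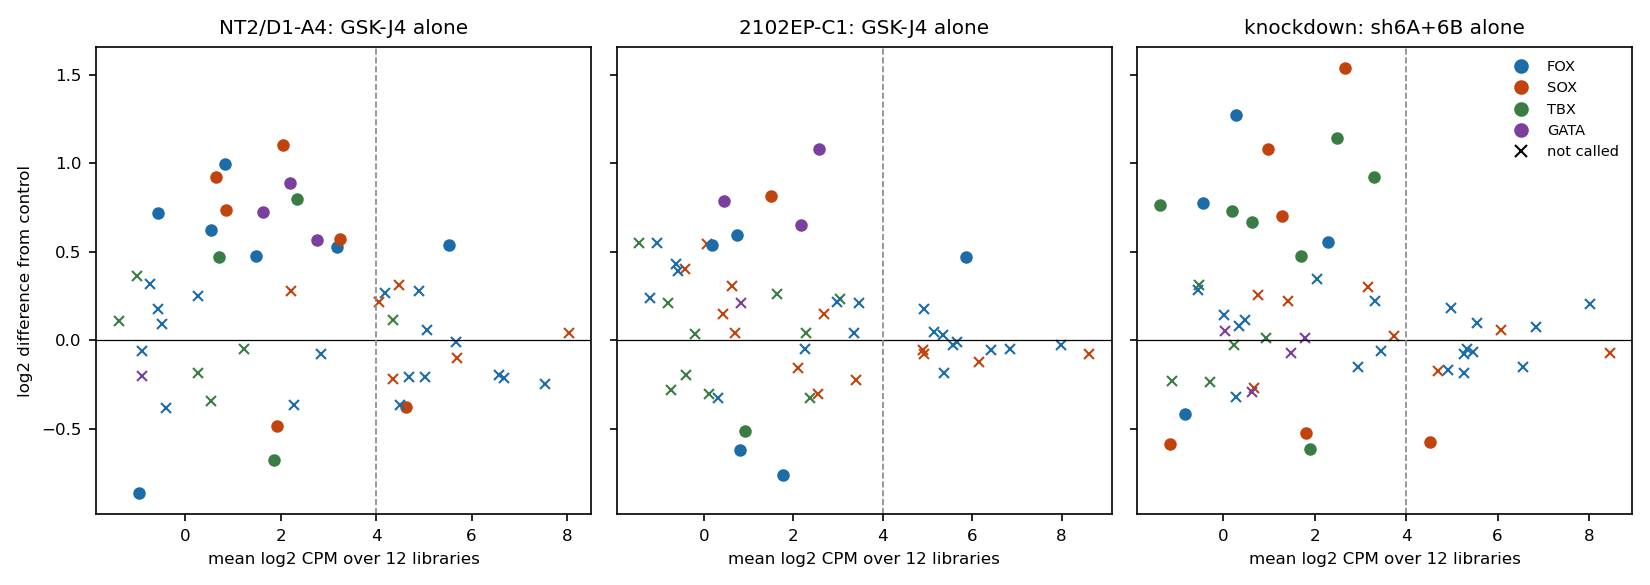
Log2 difference from control with GSK-J4 or sh6A+6B alone (y axis) against mean log2 CPM over the 12 libraries (x axis), 1 point per factor, circles called and crosses not called, dashed line at 4 log2 CPM. Circles crowd to the left of the line, where 17, 9 and 16 of them lie, against 2, 1 and 1 to its right.

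Of the 4 listed GATA factors, 3 rose with the inhibitor in both lines and 0 were called with the hairpins by limma-trend. Of all genes, 20.3% and 10.9% were called with the inhibitor in NT2/D1-A4 and 2102EP-C1, and 12.1% with the hairpins. GATA2 (gene ID 2624, chr3:128479422-128493201), known from blood stem cells and trophoblast, was at 2.47, 2.37 and 2.37 log2 CPM in the 3 NT2/D1-A4 controls and at 2.95, 2.91 and 3.06 with GSK-J4. In 2102EP-C1 it was at 1.89, 2.03 and 1.92 in controls and at 3.07, 2.91 and 3.11 with GSK-J4. The groups did not overlap in either line, and the differences were 0.57 (SE 0.081, adjusted p 1.14e-05) and 1.08 (SE 0.112, adjusted p 2.23e-08). GATA3, a factor of trophoblast and T cells, went from 1.80, 1.44 and 1.47 to 2.34, 2.39 and 2.65 in NT2/D1-A4, a rise of 0.89 (SE 0.109). In 2102EP-C1, GATA3 went from 1.70, 1.98 and 1.61 to 2.60, 2.19 and 2.45, a rise of 0.65 (SE 0.151). GATA4, which directs heart, endoderm and gonad development, lay lower. It went from 1.45, 1.24 and 1.05 to 1.83, 2.00 and 2.08 in NT2/D1-A4, a rise of 0.73 (SE 0.128), and from -0.32, 0.02 and 0.40 to 0.83, 0.89 and 0.75 in 2102EP-C1, a rise of 0.79 (SE 0.196). All 3 GSK-J4 libraries stood above all 3 controls for each of these genes in each line.

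With the hairpins, the same 3 GATA genes stayed close to their pLKO.1 values. GATA2 was at 1.90, 1.81 and 1.83 with pLKO.1 and at 1.82, 2.00 and 1.75 with sh6A+6B, a difference of 0.01 with a 95% interval of -0.15 to 0.17. The differences were -0.07 (-0.24 to 0.10) for GATA3 and 0.05 (-0.23 to 0.34) for GATA4. The upper ends of these intervals lie below the rises seen with GSK-J4 in 2102EP-C1, but the tables were normalized separately and the difference between experiments was not tested. GATA5, a heart and gut factor outside the naming rule and chosen after its values were seen, was called for neither treatment alone, at -0.20, 0.21 and -0.29. The antisense gene GATA2-AS1 shares 78 exonic bases with GATA2 and differed by 1.01 and 1.49 with GSK-J4 in the 2 lines. Its levels were low, with means of -1.21 and -1.07 log2 CPM. The library kit was a stranded one, but whether the counting used strand is not given in the sources used here. Reads of overlapping antisense pairs therefore cannot be told apart with certainty.

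SOXB factors, which act in neural progenitors, gave the largest SOX rises. In NT2/D1-A4, GSK-J4 raised 4 and lowered 2 of 12 listed SOX genes, beside 20.3% of all genes called. Of 14 in 2102EP-C1 1 rose and 0 fell (10.9% of all genes), and with the hairpins 3 rose and 3 fell of 14 (12.1%). SOX3 (gene ID 6658, chrX:140502985-140505069), a SOXB activator of neural progenitors, was at 1.41, 1.37 and 1.38 in NT2/D1-A4 controls and at 2.27, 2.69 and 2.5 with GSK-J4, a rise of 1.1 (SE 0.129, adjusted p 1.1e-06). In 2102EP-C1 it went from 0.73, 1.14 and 1.09 to 1.99, 1.92 and 1.51, a rise of 0.82 (SE 0.149, adjusted p 0.000103). The groups were apart in both lines. With the hairpins SOX3 stood at 1.51, 1.41 and 1.55 against 1.1, 1.34 and 1.35, and the difference of 0.22 was under the fold limit although its adjusted p was 0.0383. SOX21 (gene ID 11166, chr13:94709622-94712545), a SOXB repressor that favors neuronal differentiation, was called with the hairpins and not with GSK-J4 alone. It was at 1.88, 1.99 and 1.87 with pLKO.1 and at 3.42, 3.54 and 3.40 with sh6A+6B, the largest rise of any member in the 3 pretreatment contrasts, at 1.54 (SE 0.0612, adjusted p 9.23e-16). SOX21 differed by 0.22 with GSK-J4 in NT2/D1-A4 and by 0.15 (95% interval -0.06 to 0.35) in 2102EP-C1, neither of them called.

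SOX14, the other SOXB repressor, rose with the inhibitor in NT2/D1-A4 and with the hairpins. It went from 0.25, 0.19 and -0.02 to 0.94, 1.22 and 1.04 in NT2/D1-A4, a rise of 0.92, and from 0.51, 0.30 and 0.36 to 1.58, 1.42 and 1.43 in the knockdown experiment, a rise of 1.08. In 2102EP-C1 with GSK-J4 the difference was 0.54 with an adjusted p of 0.0598 and overlapping libraries. SOX5, a SOXD factor of cartilage and neural crest, shared this pattern, with rises of 0.74 in NT2/D1-A4 and 0.70 with the hairpins and a difference of 0.04 in 2102EP-C1. Its reads were 29, 55 and 43 in NT2/D1-A4 controls and 62, 99 and 94 with GSK-J4.

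Among the SOXE factors of neural crest, glia and gonad, SOX8 fell and SOX9 rose in NT2/D1-A4. SOX8 went from 1.99, 2.13 and 2.29 to 1.64, 1.73 and 1.59 with GSK-J4, a fall of 0.49 on the log2 scale, and from 2.16, 2.02 and 2.15 to 1.64, 1.43 and 1.69 with the hairpins, where it fell by 0.52. SOX9, named after its values were seen, was at 2.95, 2.97 and 2.83 in NT2/D1-A4 controls and at 3.47, 3.5 and 3.49 with GSK-J4, a rise of 0.57. In 2102EP-C1 SOX9 was at 3.35, 3.51 and 3.57 in controls and at 3.24, 3.28 and 3.22 with GSK-J4, so all libraries were lower, but the difference of -0.23 was under the fold limit. SOX15 fell with the hairpins, from 4.74, 4.61 and 4.69 to 4.03, 4.11 and 4.18, by 0.57. With GSK-J4 it differed by -0.22 in NT2/D1-A4, where all libraries lay below the controls but under the fold limit (adjusted p 0.00465), and by -0.08 in 2102EP-C1. SOX18, a SOXF factor of blood and lymph vessels named after its values were seen, was called at -0.59 with the hairpins on 20 to 45 reads per library, its libraries overlapped, and the call was lost without pLKO.1 library 2 (-0.53) or sh6A+6B library 1 or 2 (-0.46 and -0.50).

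SOX4, the most abundant SOX gene, and SOX13 differed little from control, while SOX11 moved more in each experiment and SOX12 did so in NT2/D1-A4. SOX4 was at 8.05, 8.05 and 8.04 in NT2/D1-A4 controls and 8.04, 8.11 and 8.11 with GSK-J4, and it differed by -0.08 in 2102EP-C1 and -0.07 with the hairpins. SOX13 differed by -0.10, -0.13 and 0.06. SOX12, a SOXC gene named after its values were seen, differed by 0.31, -0.06 and -0.17, under the fold limit in each. SOX11, a SOXC factor of immature neurons, fell in NT2/D1-A4 from 4.85, 4.82 and 4.78 to 4.34, 4.49 and 4.48, by 0.38, a value at the edge of the fold limit of 0.379. With library size alone as the scaling the SOX11 difference was -0.33 and the call was lost, as it was without control 1 (-0.37) or without GSK-J4 library 1 (-0.33). SOX11 differed by -0.31 with GSK-J4 in 2102EP-C1 and by 0.30 with the hairpins, and was called in neither.

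**Figure D3:**
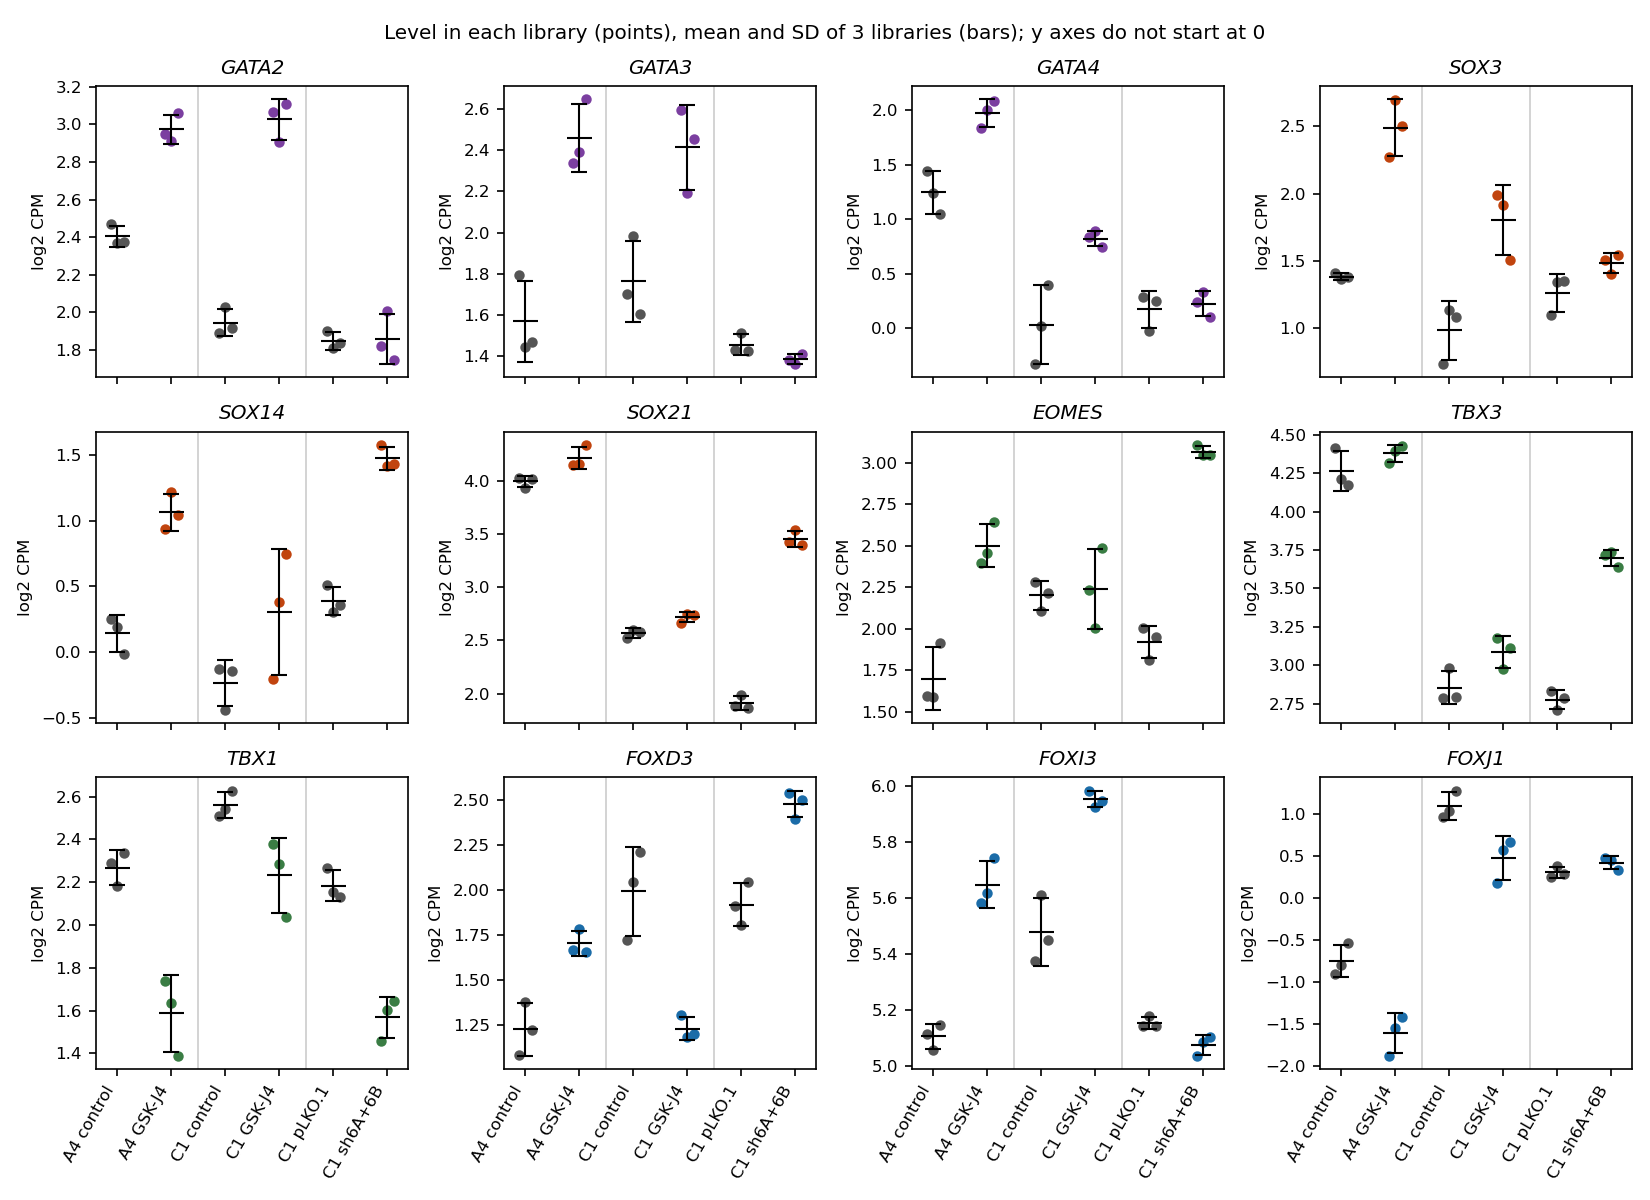
Log2 CPM (y axes, which do not start at 0) of 12 factors in each control library (grey) and each library with GSK-J4 or sh6A+6B alone (color), with mean and SD of 3 libraries. The GATA panels rise in the A4 and C1 pairs and stay level in the hairpin pair, SOX21 and TBX3 rise in the hairpin pair, FOXJ1 falls in the A4 and C1 pairs, and FOXD3 falls in the C1 pair and rises in the others.

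T-box calls were most frequent with the hairpins, which raised 6 and lowered 1 of 12 listed, beside 12.1% of all genes called. The 6 include the low member TBX22. GSK-J4 raised 2 and lowered 1 of 9 in NT2/D1-A4 (20.3% of all genes) and lowered 1 of 11 in 2102EP-C1 (10.9%). EOMES (gene ID 8320, chr3:27715953-27722713), a driver of mesendoderm and trophoblast, was at 2.00, 1.81 and 1.95 with pLKO.1 and at 3.11, 3.05 and 3.05 with sh6A+6B, a rise of 1.15 (SE 0.0626, adjusted p 2.8e-13). It also rose with GSK-J4 in NT2/D1-A4, from 1.60, 1.59 and 1.92 to 2.40, 2.46 and 2.65, by 0.80 on the log2 scale (SE 0.106). In 2102EP-C1 it was at 2.28, 2.10 and 2.21 in controls and 2.23, 2.01 and 2.49 with GSK-J4, a difference of 0.04 with a 95% interval of -0.19 to 0.27. TBX3, a repressor active in pluripotent cells, limb and heart, was the most abundant T-box gene in each table by log2 CPM. It went from 2.83, 2.71 and 2.79 to 3.72, 3.74 and 3.64 with the hairpins, a rise of 0.92 (SE 0.0462). The TBX3 differences with GSK-J4 were 0.12 in NT2/D1-A4 and 0.23 in 2102EP-C1, both under the fold limit and with overlapping libraries.

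Of the other T-box genes, TBX18, a gene of the epicardium and somites, rose with the hairpins from 0.28, 0.33 and 0.36 to 1.04, 1.09 and 0.84. Chosen after their values were seen, TBXT, the brachyury gene of early mesoderm, rose by 0.73 with the hairpins, TBX5, a heart and forelimb factor, by 0.48 (the opposite-strand gene TBX5-AS1, which shares 312 exonic bases, differed by 0.40), and TBX22, a palate factor, by 0.76 on 18 to 43 reads per library. TBX22, a low member, had a pLKO.1 mean of -1.91 log2 CPM. It may have passed the study's removal of lowly expressed genes only through arms where it was higher, which would favor a rise. TBXT went from -0.10, -0.46 and 0.02 to 0.48, 0.56 and 0.62, and differed by 0.11 in NT2/D1-A4 and 0.03 in 2102EP-C1 with GSK-J4, not called in either. It shares 373 exonic bases with the opposite-strand gene LNCDAT, which differed by 1.23 with the hairpins at a low mean of -1.25 log2 CPM. TBX2, named after its values were seen, was called at 0.47 in NT2/D1-A4, and the call was lost without control 3 (0.30), without GSK-J4 library 1 (0.49) or 3 (0.36), and with voom (adjusted p 0.0532).

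TBX1, a pharyngeal arch factor, was the T-box gene that fell with both treatments. It went from 2.29, 2.18 and 2.34 to 1.74, 1.64 and 1.39 with GSK-J4 in NT2/D1-A4, by 0.68 on the log2 scale (-0.68, SE 0.122, adjusted p 0.000135). With the hairpins it went from 2.27, 2.15 and 2.13 to 1.46, 1.60 and 1.64, a difference of -0.62 (SE 0.0736, adjusted p 2e-07). In 2102EP-C1 all GSK-J4 libraries were below all controls, at 2.38, 2.28 and 2.04 against 2.51, 2.54 and 2.63, and the difference of -0.33 had an adjusted p of 0.0113 but missed the fold limit. The opposite-strand gene GNB1L, which shares 280 exonic bases with TBX1, differed by -0.17, -0.38 and -0.50 in the 3 experiments. TBX20, a heart factor, fell by 0.51 in 2102EP-C1 with GSK-J4, from 1.2, 1.14 and 1.07 to 0.57, 0.68 and 0.62, and differed by -0.19 in NT2/D1-A4 and 0.01 with the hairpins. The TBX20 call was lost without control 1 (-0.48) or GSK-J4 library 1 (-0.49).

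In NT2/D1-A4, GSK-J4 raised 6 and lowered 1 of 25 forkhead genes, beside 20.3% of all genes called. In 2102EP-C1, 3 rose and 2 fell of 23 (10.9% of all genes), and with the hairpins 3 rose and 1 fell of 23 (12.1%). FOXD3 (gene ID 27022, chr1:63322567-63325128), a factor of pluripotent cells and neural crest, was the only member called for pretreatment in all 3 experiments, and its direction differed. In NT2/D1-A4 it went from 1.09, 1.38 and 1.22 to 1.67, 1.79 and 1.66 with GSK-J4, a rise of 0.48 (SE 0.136, adjusted p 0.00734). In 2102EP-C1 it went from 1.73, 2.04 and 2.21 to 1.31, 1.19 and 1.2, a difference of -0.76 (SE 0.123, adjusted p 2.29e-05). With the hairpins in the same line it went from 1.91, 1.81 and 2.04 to 2.54, 2.40 and 2.5, a rise of 0.56 (SE 0.0722, adjusted p 6.43e-07). The groups did not overlap in any of the 3. FOXD3-AS1, which shares 618 exonic bases on the other strand and overlaps the promoter run printed above, differed by 0.38, -0.63 and 0.32, the same signs as FOXD3. Its means were 3.45, 3.84 and 4.18 log2 CPM, above all FOXD3 values given here, so shared reads could weigh on FOXD3.

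Several forkhead genes of ectoderm, gonad and mesoderm rose with GSK-J4. FOXI3, an ectodermal and otic placode factor, was the highest member among those that rose, going from 5.12, 5.06 and 5.15 to 5.58, 5.62 and 5.74 in NT2/D1-A4 and from 5.37, 5.61 and 5.45 to 5.98, 5.92 and 5.95 in 2102EP-C1. The rises were 0.54 (SE 0.0494) and 0.47 (SE 0.0659), while the difference with the hairpins was -0.08. FOXL2, the ovarian granulosa factor, rose by 0.62 and 0.60 in the 2 lines and differed by 0.08 with the hairpins. Its 2102EP-C1 call rested on control 1, which held 31 reads against 67 and 72 in the other 2 controls: without it the FOXL2 difference was 0.36 and the call was lost, as it was without GSK-J4 library 1 (0.54). FOXC1, a mesoderm and vessel factor, rose by 1.00 in NT2/D1-A4 and by 0.78 with the hairpins, and differed by 0.43 (adjusted p 0.218) in 2102EP-C1, where it had 13 to 26 reads per library. In NT2/D1-A4, FOXC1 reads were 40, 45 and 30 in controls and 77, 105 and 99 with GSK-J4.

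FOXJ1, the master factor of motile cilia, fell with GSK-J4 in both lines. In 2102EP-C1 it went from 0.97, 1.04 and 1.28 to 0.17, 0.57 and 0.67, a difference of -0.62 (SE 0.167). In NT2/D1-A4, where FOXJ1 is a low member with 15, 21 and 18 reads in controls and 6, 13 and 13 with GSK-J4, the difference was -0.86 (SE 0.274), and the call was lost without control 3 (-0.76) or without GSK-J4 library 1 (-0.73). With the hairpins FOXJ1 differed by 0.11. FOXP2, a factor of speech circuits, rose by 0.54 with GSK-J4 in 2102EP-C1, a call lost without control 1 (0.48) or 3 (0.54), without GSK-J4 library 1 (0.44) or 3 (0.52), and when only the groups compared were fitted (adjusted p 0.0508). Chosen after their values were seen, FOXD1, a kidney stroma factor, rose by 0.53 in NT2/D1-A4, FOXP3, the regulatory T cell factor, was called at 0.72 there, and FOXC2, a lymphatic vessel factor, was called at -0.42 with the hairpins on 35 to 68 reads. The FOXP3 call was lost without control 2 (0.45) or GSK-J4 library 1 or 3 (0.70 and 0.66). The FOXC2 call was lost without any of the pLKO.1 libraries (-0.43, -0.44 and -0.37) or sh6A+6B library 1 or 3 (-0.43 and -0.32).

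The broadly expressed forkhead genes were not called for any contrast in any experiment. FOXN3 differed by -0.25, -0.03 and 0.20 and FOXJ3 by -0.22, -0.05 and 0.07 with GSK-J4 in NT2/D1-A4, with GSK-J4 in 2102EP-C1 and with the hairpins. The FOXO factors, which AKT keeps out of the nucleus, stayed under the fold limit: FOXO3 differed by 0.28, 0.18 and 0.18, FOXO1 by 0.27, 0.04 and 0.22, and FOXO4 by -0.21, 0.05 and -0.17. For FOXO3 the adjusted p was under the limit in all 3 experiments (0.000942, 0.00922 and 9.4e-06). In all, 23 of the 57 members were called in no contrast of any experiment. Beside these 5 and SOX4 and SOX13 they were FOXA3, FOXE1, FOXF2, FOXJ2, FOXK1, FOXK2, FOXN2, FOXN4, FOXO6, FOXP1, FOXP4, SOX7, SOX30, TBX4, TBX19 and TBX21. The extremes of their pretreatment differences were FOXJ2 at -0.37 and TBX19 at 0.36 in NT2/D1-A4, FOXO6 at -0.33 and TBX21 at 0.55 in 2102EP-C1, and FOXO6 at -0.32 and FOXP4 at 0.34 with the hairpins, TBX19 and TBX21 being low members there.

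The 3 experiments shared some of these responses. Called for pretreatment in no experiment were 26 members, in 1 experiment 17, in 2 experiments 13, and in all 3 only FOXD3. Both lines with GSK-J4 shared 8 called members, 42.1% of the 19 in NT2/D1-A4 and 80% of the 10 in 2102EP-C1: GATA2, GATA3, GATA4, SOX3, FOXI3 and FOXL2 up, FOXJ1 down, and FOXD3 in opposite directions. NT2/D1-A4 with GSK-J4 and 2102EP-C1 with the hairpins shared 7, EOMES, FOXC1, SOX14, SOX5 and FOXD3 up and TBX1 and SOX8 down, 36.8% of the 19 and 50% of the 14 called with the hairpins among members listed in both tables. Within the 2102EP-C1 line, the only member called with both inhibitor and hairpins was FOXD3, in opposite directions. Such overlaps rest on the fold and p limits, and the knockdown libraries were sequenced more deeply than the others. Over members listed in both tables, the log2 differences had a Pearson r of 0.60 between the lines with GSK-J4 (46 members, 34 with the same sign), 0.32 between NT2/D1-A4 with GSK-J4 and the hairpins (47 members, 27) and 0.07 between inhibitor and hairpins in 2102EP-C1 (51 members, 29). These correlations are across genes of the same libraries, which are not independent replicates, and describe the values only. Overlaps and correlations over all genes were not computed, so none of these values is shown to be particular to these factors.

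**Figure D4:**
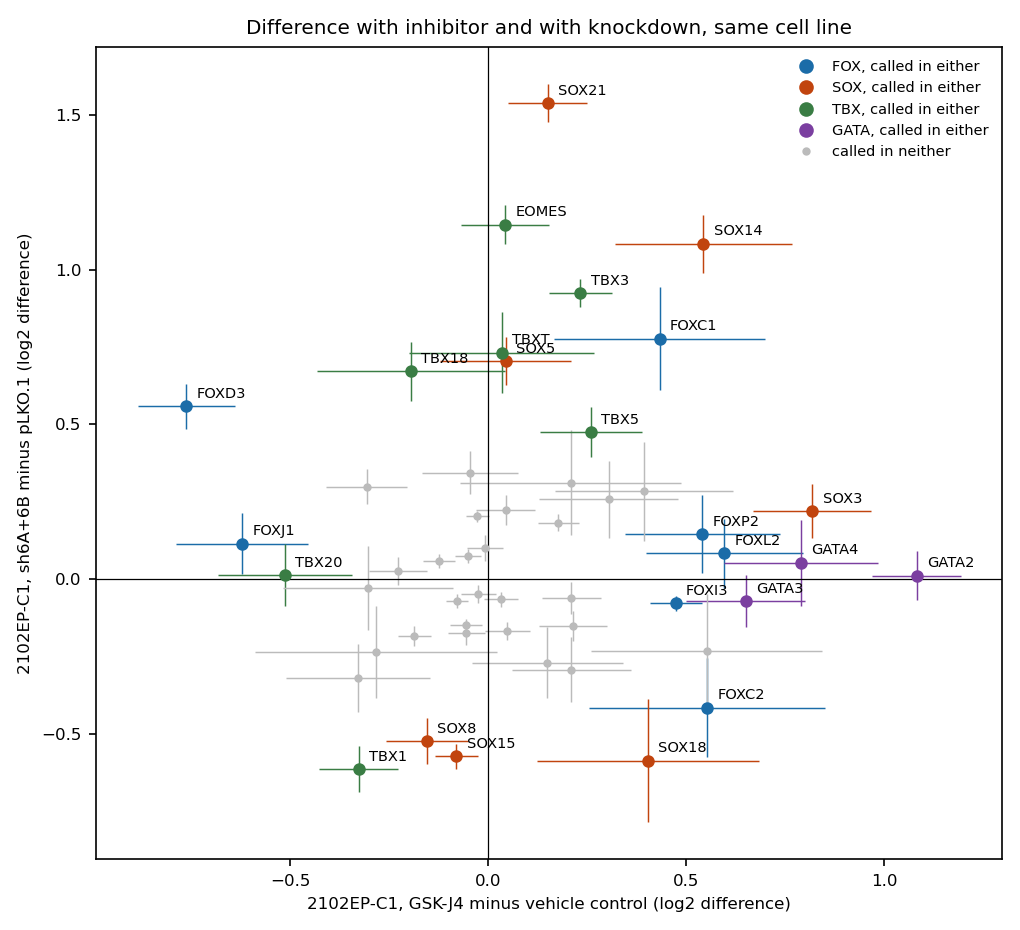
Log2 difference with sh6A+6B (y axis) against log2 difference with GSK-J4 (x axis) in 2102EP-C1 cells for factors in both tables, bars showing the SE, colors marking factors called in either contrast. SOX21, EOMES, SOX14 and TBX3 stand high on the y axis and GATA2, SOX3, GATA4 and GATA3 lie far along the x axis, with FOXD3 in the upper left at -0.76 and 0.56.

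Cisplatin alone changed few of these factors. In NT2/D1-A4 it raised 5 of 50 and lowered 0, 10% against 2.45% of all genes called and 2.05% called up. EOMES rose the most, from 1.60, 1.59 and 1.92 to 2.59, 2.34 and 2.48, by 0.77 on the log2 scale (SE 0.106, adjusted p 0.000159). SOX15 rose by 0.42, from 4.4, 4.29 and 4.29 to 4.69, 4.79 and 4.75. GATA3 rose by 0.47 and FOXI3 by 0.39, to 5.56, 5.49 and 5.43. TBX18 was called at 0.50 with overlapping libraries. Only EOMES and SOX15 kept the call with every library left out in turn: without control 2, which left 2 calls, GATA3 was at 0.40, FOXI3 at 0.36 and TBX18 at 0.43, and 3 calls were left without control 3 or without cisplatin library 1. GATA3 (0.43) was also lost without cisplatin library 2 and TBX18 (0.46) without cisplatin library 3.

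In 2102EP-C1, cisplatin alone raised 1 of 52 members, FOXP2, beside 1.07% of all genes called and 0.881% called up. FOXP2 went from -0.43, -0.17 and -0.30 to 0.49, 0.86 and 0.66, a rise of 0.97 (SE 0.196, adjusted p 0.00304), on 23 to 39 reads in controls and 51 to 66 with cisplatin. The count was 2 without GSK-J4 library 3. With pLKO.1, limma-trend called 0 of 53 for cisplatin alone beside 3% of all genes, and voom on the recovered reads called 1. In the limma-trend fit, 25 of the 53 were under an unadjusted p of 0.05, beside 7302 of all 16459 genes. FOXI3 came close, from 5.14, 5.18 and 5.14 to 5.44, 5.48 and 5.47, a difference of 0.31 with an adjusted p of 2.18e-09 but under the fold limit, and EOMES differed by 0.13 there and by 0.23 in 2102EP-C1.

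Cisplatin in pretreated cells was called for 0, 1 and 2 members in the 3 experiments. With GSK-J4 in NT2/D1-A4, limma-trend called 0 of 50 beside 0.377% of all genes, and voom called 0. By limma-trend, 6 of the 50 were under an unadjusted p of 0.05, beside 2403 of all 16431 genes. In 2102EP-C1 limma-trend called FOXI3 alone of 52, beside 2.22% of all genes called and 0.916% called up. FOXI3 went from 5.98, 5.92 and 5.95 with GSK-J4 to 6.64, 6.33 and 6.28 with GSK-J4 and cisplatin, a rise of 0.47 (adjusted p 3.5e-05), and was at 0.35 and not called without combination library 1. Other libraries also moved this count, which was 2 without GSK-J4 library 1 or 3, 0 without combination library 1 and 3 without combination library 3. With sh6A+6B, 0 of 53 rose and 2 fell beside 3.52% of all genes called and 1.04% called down: SOX11, from 3.55, 3.40 and 3.38 to 3.14, 2.92 and 3.02, by 0.41, and the low member FOXP3, also by 0.41. SOX11 went under the fold limit, at -0.36, without sh6A+6B library 1 or sh6A+6B with cisplatin library 2. The FOXP3 call was lost without sh6A+6B library 2 or 3 or sh6A+6B with cisplatin library 1 or 3, with values of -0.31 to -0.43. A single call was left without sh6A+6B library 2 or sh6A+6B with cisplatin library 2.

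The interaction asks whether the cisplatin difference itself changed with pretreatment. It was called for 0 of 50 members in NT2/D1-A4 by limma-trend, beside 0.0426% of all genes, and for 0 by voom. By limma-trend, 4 of the 50 were under an unadjusted p of 0.05, beside 1174 of all 16431 genes. In 2102EP-C1, beside 0.857% of all genes called and 0.663% called down, the interaction was called for FOXP2, at -1.12 (SE 0.277, adjusted p 0.0307). Its levels were 0.49, 0.86 and 0.66 with cisplatin alone, 0.44, -0.01 and 0.29 with GSK-J4 alone, and -0.24, 0.34 and 0.19 with both, so the combination overlapped its GSK-J4 libraries and the controls. The FOXP2 call was lost without control 1 or 3, cisplatin 2 or 3, GSK-J4 1 or combination 1, with values of -0.95 to -1.12, and the count was 2 without GSK-J4 library 3. In the knockdown experiment, beside 3.77% of all genes called and 2.67% called down, FOXD3 was called at -0.39 (SE 0.102, adjusted p 0.00381). FOXD3 was at 1.91, 1.81 and 2.04 with pLKO.1, 2.31, 2.39 and 2.14 with cisplatin, 2.54, 2.40 and 2.5 with sh6A+6B, and 2.45, 2.36 and 2.52 with sh6A+6B and cisplatin. It fell under the fold limit, at -0.33 to -0.38, without pLKO.1 library 2, pLKO.1 with cisplatin 1 or 2, sh6A+6B 1 or sh6A+6B with cisplatin 2. The count was 0 without pLKO.1 library 2 or sh6A+6B with cisplatin library 2, and 2 without pLKO.1 library 1 or 3 or sh6A+6B with cisplatin library 3.

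**Figure D5:**
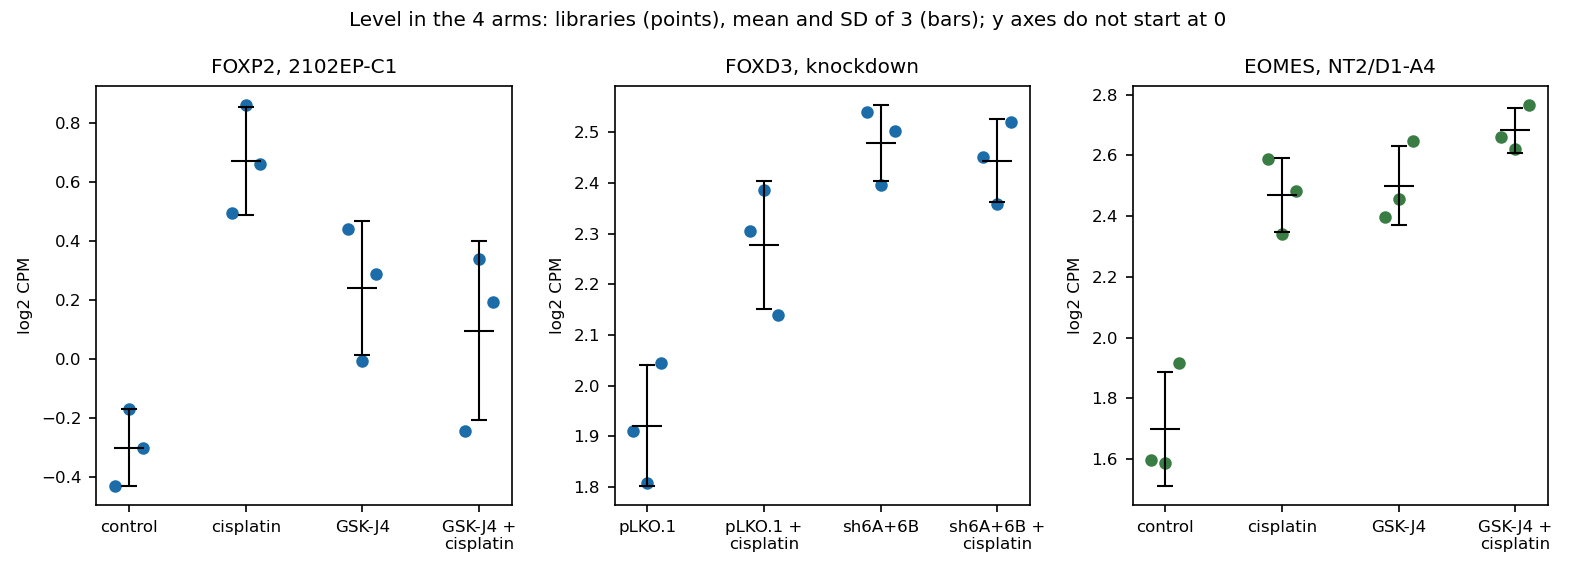
Log2 CPM (y axes, which do not start at 0) in the 4 arms for FOXP2 in 2102EP-C1, FOXD3 in the knockdown experiment and EOMES in NT2/D1-A4, points for libraries and bars for mean and SD of 3. FOXP2 is highest with cisplatin alone at 0.49 to 0.86, FOXD3 lies at 2.40 to 2.54 with sh6A+6B and 2.36 to 2.52 with sh6A+6B and cisplatin, and EOMES at 2.40 to 2.65 with GSK-J4 and 2.62 to 2.77 with both.

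The combination against control called 15 members up and 4 down of 50 in NT2/D1-A4 (25.4% of all genes, 15.9% up and 9.56% down), 8 up and 4 down of 52 in 2102EP-C1 (22.6%, 12.8% up and 9.77% down) and 13 up and 5 down of 53 in the knockdown experiment (16%, 8.51% up and 7.5% down). These contrasts share their controls with those of the pretreatment, so their values are given side by side. GATA2 differed by 1.08 with GSK-J4 alone and by 1.38 with the combination in 2102EP-C1, and by 0.57 and 0.69 in NT2/D1-A4. SOX3 differed by 1.1 and 1.33 in NT2/D1-A4, EOMES by 0.80 and 0.98, FOXI3 by 0.54 and 0.80, and SOX21 by 1.54 and 1.44 with the hairpins. FOXI3 in 2102EP-C1 stood at 0.47 with GSK-J4 and 0.94 with the combination. Called with the combination and not with pretreatment alone, and chosen after their values were seen where outside the naming rule, were TBX10 (-0.76) in NT2/D1-A4, SOX11 (-0.65), SOX14 (0.64), TBX1 (-0.48) and TBX3 (0.41) in 2102EP-C1, and GATA5 (-0.56), SOX12 (-0.52), TBX2 (0.43) and FOXP2 (0.42) with the hairpins. FOXC1 with the hairpins went from 0.58 to 0.36 without pLKO.1 library 3, and FOXL2 in 2102EP-C1 from 0.48 to 0.24 without control 1. TBX3 went under the fold limit without control 1 or 3 (0.37), SOX14 was lost without control 2 (0.54) or combination library 3 (0.55), and TBX2 with the hairpins without pLKO.1 library 3 (0.31) or sh6A+6B with cisplatin library 1 (0.35) or 2 (0.31).

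Partners and lineage genes of these factors are given by lists chosen with earlier results of these data known, and their counts stand beside the 20.3%, 10.9% and 12.1% of all genes called in NT2/D1-A4, in 2102EP-C1 and with the hairpins. Counts of 1 in 8 to 1 in 12 are near or under those shares. In the same order, 8, 6 and 5 of 12 endoderm genes and 9, 6 and 6 of 11 neural crest genes were listed. Of 14 mesoderm genes, 8 were listed in each experiment. Genes silent in controls could be listed only where a treatment raised them, which favors rises in these counts. Of GATA partners, cofactors that bind GATA proteins, 4 of 9 listed rose with GSK-J4 in NT2/D1-A4 (LMO2 by 1.37, LMO4 by 0.59, HAND1 by 0.57, ZFPM1 by 0.49), 2 of 9 in 2102EP-C1 (TAL1 by 1.05, HAND1 by 0.89) and 1 of 8 with the hairpins (HAND1 by 0.49), with none down. Their median differences were 0.27, 0.25 and -0.12, against 0.01, -0.00 and -0.00 for all genes. Of endoderm genes, 6 of 8 rose in NT2/D1-A4 (CXCR4 by 2.13, CER1 by 1.62), 5 of 6 in 2102EP-C1 (HNF4A by 2.30, AFP by 1.75) and 3 of 5 with the hairpins (HHEX by 1.93), medians 0.80, 1.08 and 0.45. Of mesoderm genes, 4 of 8 rose in NT2/D1-A4 (WNT3 by 0.77), 1 of 8 fell in 2102EP-C1 (EVX1 by 0.79) and 0 of 8 were called with the hairpins, medians 0.42, 0.00 and 0.18. Of neural crest genes, 4 rose and 2 fell of 9 in NT2/D1-A4 (MSX1 by 1.84, SNAI2 by 1.68), 2 rose and 1 fell of 6 in 2102EP-C1 (TFAP2A by 1.31), and 3 rose and 1 fell of 6 with the hairpins (ZIC1 by 2.28, TWIST1 by 1.5), medians 0.34, 0.56 and 0.18. The neural crest examples are all rises, and the genes that fell are counted but not named. Called or not, 6 of 9, 4 of 6 and 3 of 6 neural crest genes lay above control.

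Of SOX partners and Groucho corepressors, 3 rose and 1 fell of 12 in NT2/D1-A4, where the neural factors PAX6, POU3F2 and POU3F1 rose by 1.65, 1.42 and 1.1 and POU2F1 fell by 0.61. In 2102EP-C1 0 of 11 were called, and with the hairpins the corepressors TLE2 and TLE5 fell by 0.55 and 0.47, 2 of 11. The list medians were 0.06, -0.05 and -0.17. Of FOXO target genes, 5 rose and 1 fell of 12 in NT2/D1-A4 (TXNIP by 1.09, BCL6 by 0.87), 4 rose in 2102EP-C1 (TXNIP by 0.52, SESN3 by 0.51) and 1 with the hairpins (CCNG2 by 0.62), medians 0.20, 0.17 and 0.11. The FOXO target examples are all rises, and the 1 that fell is not named. Of 10 FOXO regulators 1 was called, PIK3R1, up by 0.46 in NT2/D1-A4. The fibroblast list moved with these contrasts too, with COL1A2 and THY1 down by 0.46 and 0.38 in NT2/D1-A4 and PDGFRB and THY1 up by 0.61 and 0.44 with the hairpins, and its part in the list counts was not tested.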

How the data were processed

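RNA-seq values of 36 libraries in 3 gene tables were used. In the study's methods, Trimmomatic trimming was followed by STAR alignment to GRCh38.p14, featureCounts counting, removal of lowly expressed genes and TMM normalization. The library kit was stranded, but tool versions and the strand setting of the counting are not given in the sources used here. The values the authors deposited are log2 CPM at TMM-scaled library sizes with a prior count of 3. Reads recovered under this formula were whole within 0.05 for 100% of values under 50 reads, and their sums gave the depth. Symbols were matched by NCBI gene ID to RefSeq (16414, 17020 and 16443 genes). Sequences are from RefSeq.

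Each table was fitted with limma-trend (limma 3.58.1, R 4.3.3) on all genes and 12 libraries, as group means with no block, two-sided, with Benjamini-Hochberg adjustment over all genes of the table. The fit was tested on simulated data. Tables were made in Python 3.11.15 (pandas 2.3.3, numpy 2.4.6, matplotlib 3.10.9). No column of a sample outside the series was found (0). Replicate numbers shared across arms were given no pairing, since same-numbered libraries did not all deviate together.

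Members and lists were chosen with earlier results of these data known. Named genes were members called for pretreatment in at least 2 experiments, the 3 largest rises and falls per contrast among called members with a mean of at least 0 log2 CPM, the 2 highest members per family, and members called in opposite directions. Alternatives were other mean limits, only the groups compared, a replicate block, a prior count of 0.5, library size only, voom on recovered reads and each library left out. Levels per kilobase used the merged length of all GENCODE exons of a gene. Genes with many annotated exons (32.8 kb for FOXP1) therefore rank lower per kilobase. Low values understate a fold because of the prior count. A member that counts include is not reported here by name or drawn among the named genes.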

Additional observations from a re-analysis of the deposited data

Results flagged for a closer look

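FOXP2 in 2102EP-C1 was marked because the cisplatin difference in GSK-J4-pretreated cells differed from that in untreated cells, by -1.12 on the log2 scale in the interaction test. FOXD3 was marked for the same reason in the knockdown experiment, at -0.39.

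FOXD3 and SOX9 were marked because all libraries of 1 line moved one way with GSK-J4 and all libraries of the other line the opposite way. FOXD3 differed by 0.48 in NT2/D1-A4 and by -0.76 in 2102EP-C1. SOX9 differed by 0.57 in NT2/D1-A4 and by -0.23 in 2102EP-C1. The difference between the lines was not tested, since the tables were normalized separately.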

How the results depend on the processing

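Of 106 calls of single members in the 15 contrasts, 80 held under every alternative that tested the gene, 26 were lost under at least 1, and 0 changed direction. Restricting genes to a mean of at least 1 log2 CPM gave 12 members for GSK-J4 and 11 for the combination in NT2/D1-A4, 5 for GSK-J4, 0 for cisplatin and 0 for the interaction in 2102EP-C1, and 9, 8 and 1 for sh6A+6B, the combination and cisplatin in sh6A+6B cells, by construction with fewer members tested. A limit of 0 gave 1 for cisplatin in sh6A+6B cells. Fitting only the groups compared gave 2 for cisplatin in 2102EP-C1 and 1 in pLKO.1 cells, and voom gave 1 in pLKO.1 cells; the cause was not tested.

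With each library left out, counts in NT2/D1-A4 ranged from 16 to 20 for GSK-J4, 2 to 5 for cisplatin, 17 to 19 for the combination, and 0 to 0 for cisplatin after GSK-J4 and for the interaction. For the same contrasts in that order they ranged in 2102EP-C1 from 8 to 10, 1 to 2, 10 to 12, 0 to 3 and 0 to 2, and in the knockdown experiment from 15 to 18, 0 to 1, 16 to 19, 1 to 3 and 0 to 2.

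Same-numbered libraries correlated at -0.18 to 0.28 in NT2/D1-A4, -0.13 to 0.10 in 2102EP-C1 and -0.17 to 0.31 in the knockdown experiment. With the replicate number as a block, 105 of 106 calls held, that of FOXL2 for the combination in 2102EP-C1 was lost, and cisplatin in pLKO.1 cells gave 1 member. Low members rest on few reads, so a difference had to lie well above its SE to be called, and smaller ones were not detectable at this depth.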
